A study of Blattella germanica with 16 samples.

Results

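RNA interference against the insulin receptors InR1 and InR3 of the German cockroach Blattella germanica was compared, as 8 pooled libraries, with control females. RNA sequencing was done on fat body. The comparison looks for a response that both receptor treatments share, through their mean, which either treatment alone can also move. Members were chosen by the labelled agent, which also stands in the table's column names. They are 4 dsInR1, 4 dsInR3 and 4 dsMock libraries, or 12 of the 16 in the series. The other 4, dsInR2, enter only the last comparison. Every group, the control included, consisted of adult females of 1 reared population that were injected 2 times, 7 days apart, with 2 µg of double-stranded RNA (dsRNA) each time. The control columns are named after polyhedrin, and dsMock was the only group left for them. According to the series design, injections began with ootheca transport, the ootheca was taken away on day 12 and tissue was taken on day 5 of the second reproductive cycle. The treatment protocol instead counts the injections as 12 and 5 days before extraction. Neither age nor the number of females per library is stated, and the p-values therefore measure a spread among libraries that may in part be technical.

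Insulin receptors are receptor tyrosine kinases. Once a ligand binds, they signal through phosphatidylinositol 3-kinase and Akt, which hold the transcription factor FoxO out of the nucleus and promote TOR, the kinase complex that raises ribosome production and translation. The fat body is the insect counterpart of liver and adipose tissue. It stores lipid and glycogen, secretes most hemolymph proteins and, in reproducing cockroach females, makes the yolk precursor vitellogenin under juvenile hormone, a process that depends on nutrition and insulin signalling.

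The libraries held 15345964 to 21602786 read counts, and replicates of a group correlated at r = 0.92 to 0.954 in log2 CPM (read counts scaled to library size with TMM factors, which correct for composition). The labelled tissue was checked against fat body products. Apolipophorin, the lipid carrier of hemolymph, took 2.63% ± 0.505 (SD, n = 4) of the read counts in dsMock and 2.73% ± 0.431 (n = 8) in the knockdown libraries. The storage protein Cr-PI allergen CRPI_3 took 1.49% ± 0.219 and 1.73% ± 0.859. No product in the table is named vitellogenin, but 1 unnamed gene, C0J52_15443, took 55.1% ± 3.58 (SD, n = 4) of dsMock counts, 58.2% ± 2.91 (n = 4) of dsInR1 counts and 50.1% ± 10.1 (n = 4) of dsInR3 counts. The difference of the 8 from the 4 libraries in this share was -0.948 percentage points (exact two-sided permutation test, p = 0.909). Leaving out dsInR3 library 3 or dsMock library 5 turned its direction, to 1.77 and 0.275 points.

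Single libraries stood apart. In dsInR3 library 3 the most abundant gene held 35.1% of counts against 53.8 to 56.9% in the other dsInR3 libraries, and its first principal component (PC1) score was 47.5, the highest of the 12. At the other end, dsInR1 library 2 scored -44.5. On PC2, dsMock library 1 scored 55.7 against 11.4 to 14.1 in the other dsMock libraries. All 4 dsInR3 libraries were at or below -21 on PC2 and all 4 dsMock libraries were positive, with dsInR1 between them at -5.77 to 7.67.

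**Figure D1:**
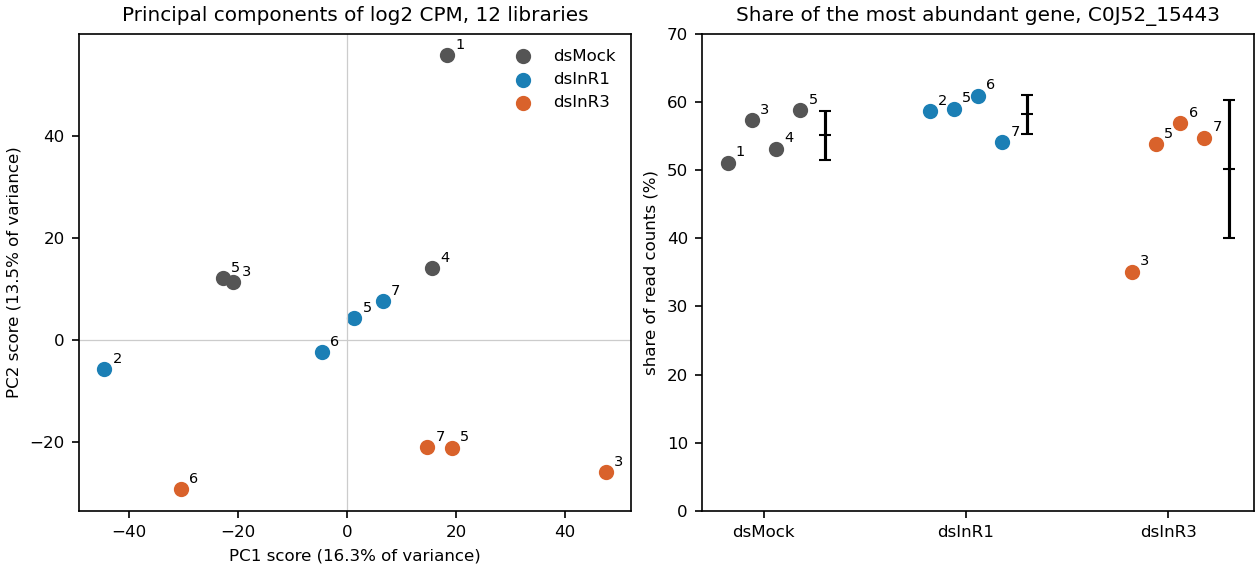
Left, scores of the 12 libraries on the first and second principal components of log2 CPM, with the share of variance on each axis; the digits are library numbers from the table. Right, percent of each library's read counts from C0J52_15443, with the mean and SD of 4 libraries beside the points. The dsInR1 libraries lie between dsMock and dsInR3 on PC2, and dsInR3 library 3 has the lowest share at 35.1%.

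Only 1 gene of the table is annotated as an insulin receptor (InR, C0J52_14014). Which of the 3 targeted receptors it encodes is not stated, so it checks the labels only in part. Its level was 46.2, 49.8, 49 and 47.6 CPM in the dsMock libraries, 43.4, 46.5, 46.3 and 42 CPM in dsInR1 and 27.4, 35.5, 42.3 and 34.6 CPM in dsInR3. Of the 8 knockdown libraries 6 lay below every dsMock library, and 2 dsInR1 libraries lay just above the lowest control. Mean log2 CPM of the 8 differed from dsMock by -0.29 (exact two-sided permutation test, p = 0.0121, where 0.00404 is the smallest p of 8 against 4). The log2 fold changes were -0.11 ± 0.12 with dsInR1 and -0.46 ± 0.12 with dsInR3, and the pooled adjusted p was 0.337 (edgeR). With dsInR2 the same gene was at -3.16 ± 0.19 on the log2 scale.

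No gene passed the test on the mean of dsInR1 and dsInR3. A change with either treatment alone can move that mean, so a change with both was not tested by it. Of 10193 genes tested with edgeR, 0 passed an adjusted p of 0.05 for the mean of dsInR1 and dsInR3 against dsMock (0%), and the smallest adjusted p was 0.0679. At an unadjusted p under 0.05 stood 1131 genes (11.1%), 585 higher (5.74%) and 546 lower (5.36%) in the knockdowns. DESeq2 called 122 genes, 75 higher and 47 lower, and limma-voom called 2. Leaving out 1 library at a time gave 0 to 6 calls, with 6 without dsMock library 4 and 2 without dsMock library 5. The median pooled log2 fold change of all genes was -0.01 and the median size was 0.19, beside a median SE of 0.204. In bulk tissue, a change in the RNA of fat body cells and a change in the mix of cells cannot be told apart.

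The 12 libraries also bound what could have been missed. For 7456 genes (73.1%) the 95% interval of the pooled log2 fold change lay within -1 and 1, so that a 2-fold shared change lay outside it. That share was 34.6% among the 25% of genes with the lowest levels and 91.3% among the 25% with the highest. A fitted size above 1 on the log2 scale was seen in 367 genes, of which 124 had an unadjusted p under 0.05.

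**Figure D2:**
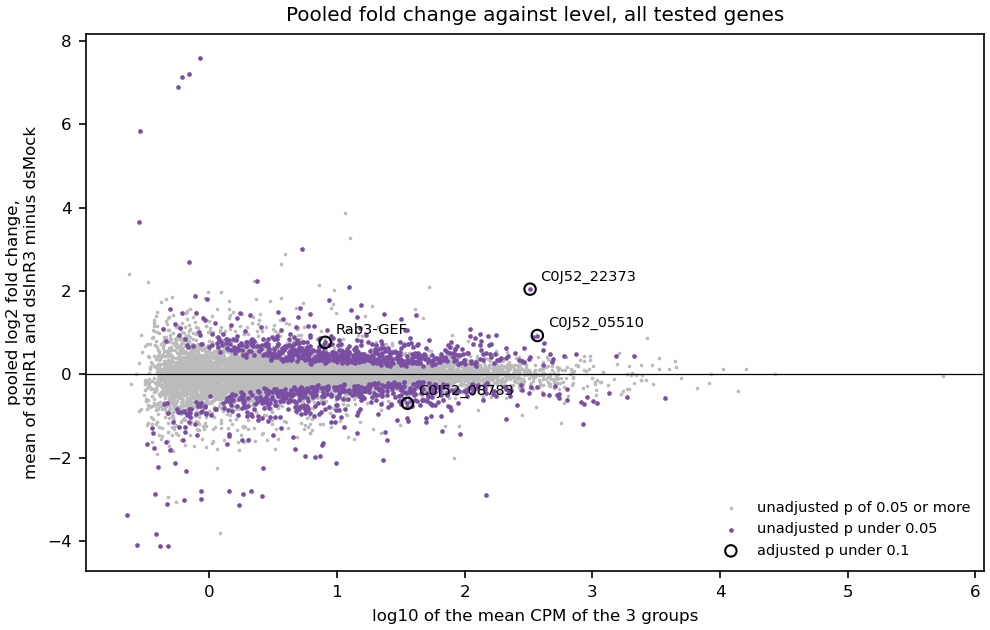
Pooled log2 fold change (vertical axis) against the log10 of mean CPM (horizontal axis) for the 10193 tested genes, with the 1131 genes of unadjusted p under 0.05 in purple and the 4 of adjusted p under 0.1 circled. The 5 genes above 5 on the vertical axis had no reads in any dsMock library, so the height of those points depends on the fitting prior.

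Some genes had nearly the same difference with either treatment. Among the 10 higher genes of smallest p the largest value was that of C0J52_22373, an unnamed protein. It stood at 57.6, 64.3, 142 and 158 CPM in dsMock, at 492, 383, 492 and 370.1 in dsInR1 and at 568, 443, 392 and 345 in dsInR3. All 8 knockdown libraries were above all 4 controls, and the controls themselves fell into a lower and a higher pair. Its log2 fold changes were 2.04 ± 0.30 with dsInR1 and 2.05 ± 0.30 with dsInR3, and the pooled value of 2.04 ± 0.26 (SE) corresponds to 4.13-fold (adjusted p = 0.0679). In 5 alternatives its adjusted p was below 0.05: DESeq2, limma-voom, the fit over all 16 libraries, and the fits without dsMock library 4 or dsMock library 5. A second unnamed gene, C0J52_05510, was at 219, 195, 239.5 and 269 CPM in dsMock, 486, 446, 369 and 369.5 in dsInR1 and 505, 452, 518 and 384 in dsInR3. Here too no knockdown library reached down to a control, and the values were 0.86 ± 0.15 with dsInR1 and 1.01 ± 0.15 with dsInR3 (pooled 0.93 ± 0.13 (SE), adjusted p = 0.0679).

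Among higher genes with a known product, Rab3-GEF encodes the exchange factor that loads the vesicle GTPase Rab3 with GTP. Its levels were 4.92, 5.99, 5.63 and 5.38 CPM in dsMock, 9.21, 9.37, 7.93 and 6.87 in dsInR1 and 10.7, 11.8, 9.89 and 9.6 in dsInR3, without overlap. The pooled log2 fold change was 0.77 ± 0.12 (SE), with an adjusted p of 0.0833. The gene ttc37, whose human counterpart belongs to the SKI complex that feeds RNA to the exosome, was at 2.35, 4.08, 2.37 and 3.94 CPM in dsMock, 5.97, 5.41, 6.87 and 4.84 in dsInR1 and 11.3, 8.27, 8.39 and 7.56 in dsInR3. The dsInR1 libraries lay between the controls and dsInR3, at 0.85 ± 0.22 with dsInR1 and 1.48 ± 0.22 with dsInR3 on the log2 scale (pooled adjusted p = 0.105). Unnamed genes of similar evenness were C0J52_13173, at 1.24 ± 0.29 with dsInR1 and 1.52 ± 0.28 with dsInR3, and C0J52_03693, at 1.02 ± 0.26 with dsInR1 and 1.30 ± 0.25 with dsInR3. Both stood above dsMock in all 8 knockdown libraries, at pooled adjusted p-values of 0.186 and 0.2.

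Other higher genes had larger values with dsInR3 than with dsInR1. Aldh5a1, the mitochondrial enzyme that ends the breakdown of the transmitter GABA, was at 58.5, 55, 57.3 and 49.4 CPM in dsMock, 59.2, 65.3, 72 and 64.4 in dsInR1 and 88.8, 111, 94.1 and 104 in dsInR3. Its log2 fold changes were 0.24 ± 0.11 with dsInR1 and 0.85 ± 0.11 with dsInR3, and every dsInR3 library was above every dsInR1 library. ASNS, asparagine synthetase, was at 83.5, 109.8, 97.2 and 81.9 CPM in dsMock, 119.7, 194, 171 and 98 in dsInR1 and 206, 256, 212 and 188 in dsInR3, with 1 dsInR1 library inside the control range. Its log2 fold changes were 0.64 ± 0.20 with dsInR1 and 1.21 ± 0.20 with dsInR3. TKTL1, annotated as a transketolase-like protein of the pentose phosphate route, had log2 fold changes of 0.43 ± 0.22 with dsInR1 and 1.51 ± 0.22 with dsInR3, and Lonp1, a protease of the mitochondrial matrix, of 0.40 ± 0.17 with dsInR1 and 1.03 ± 0.17 with dsInR3. Their pooled adjusted p-values were 0.105 for Aldh5a1, 0.2 for ASNS, 0.2 for TKTL1 and 0.219 for Lonp1.

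On the lower side, genes with values below 0 for both treatments ranged from weakly to well expressed. OAR_1, annotated as a receptor for octopamine, the insect counterpart of noradrenaline, was at 1.36, 0.893, 0.768 and 0.666 CPM in dsMock, 0.0635, 0.206, 0.142 and 0.271 in dsInR1 and 0.258, 0.447, 0.341 and 0.464 in dsInR3. All 8 knockdown libraries were below all controls, at -2.35 ± 0.48 with dsInR1 and -1.28 ± 0.43 with dsInR3 on the log2 scale (pooled adjusted p = 0.2). Among the 10 genes of smallest pooled p in each direction it was the only gene further from dsMock with dsInR1 than with dsInR3. The transporter slc5a8, a sodium-coupled carrier of monocarboxylates, was at 8.81, 0.319, 3.14 and 4.46 CPM in dsMock, 0.127, 0.515, 0.708 and 1.36 in dsInR1 and 0.625, 0.268, 0.136 and 0.232 in dsInR3. The pooled value was -3.12 ± 0.68 (SE), yet dsMock library 3 was as low as the knockdowns and the groups overlapped (adjusted p = 0.2).

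Of the better expressed lower genes without a name, C0J52_04915 was at 160.1, 144, 43.8 and 90.3 CPM in dsMock, 55.4, 49.2, 47.1 and 89.8 in dsInR1 and 34.2, 26, 25.9 and 33.6 in dsInR3. The control dsMock library 4 lay below all 4 dsInR1 libraries, and the values were -0.86 ± 0.34 with dsInR1 and -1.87 ± 0.34 with dsInR3. Likewise C0J52_25307 had -0.69 ± 0.26 with dsInR1 and -1.50 ± 0.27 with dsInR3, and C0J52_00719 had -0.48 ± 0.20 with dsInR1 and -1.50 ± 0.20 with dsInR3. Pooled adjusted p-values of these 3 genes were 0.2, 0.2 and 0.105.

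Other lower genes had small values with dsInR1 beside those with dsInR3. SPON1, spondin-1, an extracellular matrix protein, was at 35.6, 33.9, 32.8 and 37.5 CPM in dsMock, 28.3, 26.8, 31.7 and 30.2 in dsInR1 and 13.5, 19.6, 11.7 and 17.2 in dsInR3. No knockdown library overlapped the controls, but the distance was -0.26 ± 0.15 with dsInR1 and -1.17 ± 0.15 with dsInR3 (pooled adjusted p = 0.11). The unnamed gene C0J52_08783 was at 43.6, 50.9, 42.2 and 51.3 CPM in dsMock, 34.8, 39.9, 32.1 and 43.4 in dsInR1 and 24.9, 19.8, 21.4 and 24.3 in dsInR3. It had the smallest pooled p of the lower genes (-0.69 ± 0.11 (SE), adjusted p = 0.0833), although dsInR1 library 7 lay inside the control range. Abcg1_0, annotated as member 1 of ATP-binding cassette sub-family G, had log2 fold changes of -0.17 ± 0.15 with dsInR1 and -1.06 ± 0.15 with dsInR3. Hex-t2_1, a hexokinase, had -0.29 ± 0.19 with dsInR1 and -1.24 ± 0.19 with dsInR3, and D2hgdh, D-2-hydroxyglutarate dehydrogenase, had -0.29 ± 0.21 with dsInR1 and -1.36 ± 0.21 with dsInR3. For these 3 genes dsInR1 was within 2 SE of dsMock, and the pooled adjusted p-values were 0.2, 0.2 and 0.216.

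**Figure D3:**
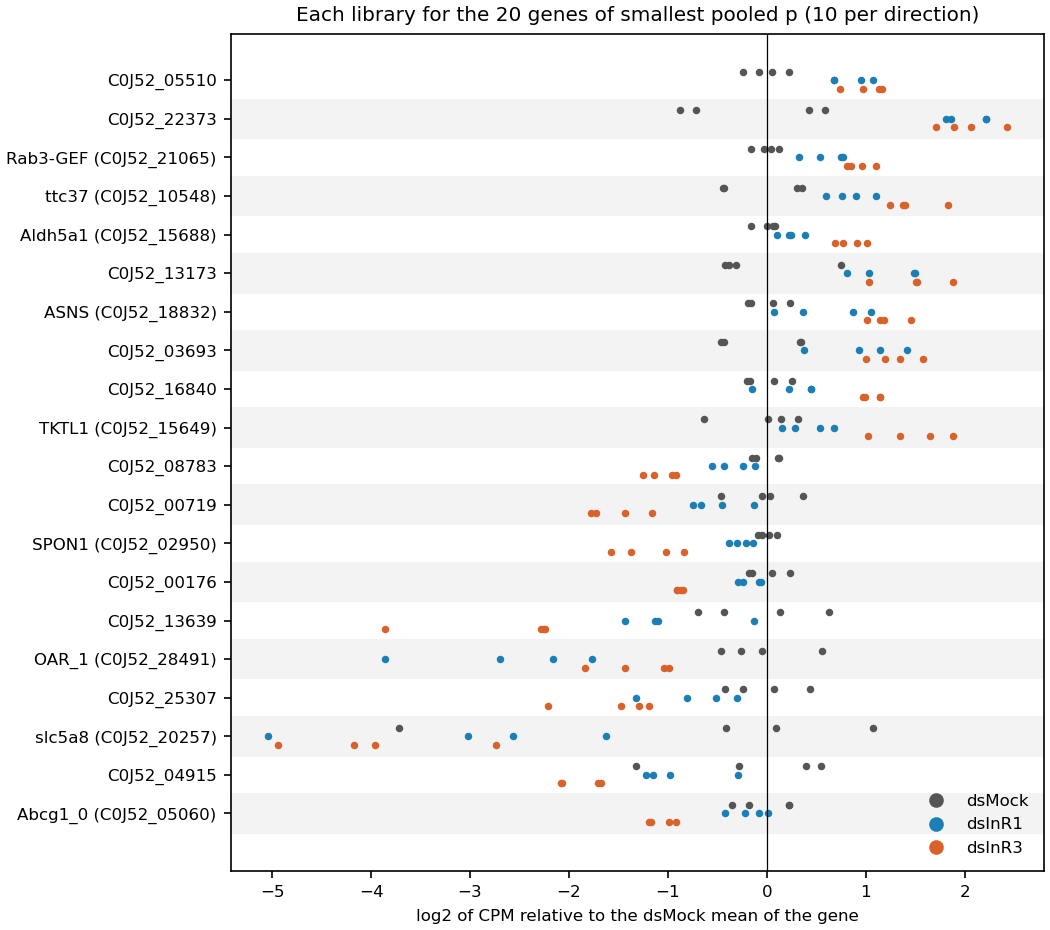
CPM of each library relative to the gene's dsMock mean, on a log2 scale, for the 10 genes of smallest pooled p in each direction; every point is 1 library, coloured by group. The libraries of C0J52_22373 and C0J52_05510 lie in the same range with either treatment, whereas for SPON1 and Abcg1_0 dsInR1 lies near the controls and dsInR3 away from them.

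Without a model, 72 genes (0.706%) had all 8 knockdown libraries on 1 side of all 4 controls, 30 higher (0.294%) and 42 lower (0.412%). With random labels, a gene would be split in this way with a probability of 0.00404 (exact permutation, 8 against 4). Of the 72, 28 carry an informative name. An unadjusted p under 0.05, found for 70, follows from the choice and adds no support, since both use the same libraries. Those named below had pooled adjusted p-values of 0.244 to 0.406 (edgeR). Their median size was 0.52 on the log2 scale. Some of them, picked here after their values were seen, had nearly equal values with either treatment, and others had larger values with dsInR3. Trx-2_0 (C0J52_05884), the redox protein thioredoxin, had log2 fold changes of 0.29 with dsInR1 and 0.29 with dsInR3. The ligase rars (C0J52_02261), which charges tRNA with arginine, had 0.43 and 0.62, and DDX42 (C0J52_22109), an RNA helicase, had 0.49 and 0.39. Hr96 (C0J52_03524), a nuclear receptor that in Drosophila controls lipid and xenobiotic responses, was lower, at -0.38 and -0.39. MTHFD2 (C0J52_01018), a mitochondrial enzyme of folate metabolism, had the lowest value, -2.25 with dsInR1 and -1.98 with dsInR3. Both genes annotated as prohibitin-2, a scaffold of the inner mitochondrial membrane, were among the higher ones, with larger values for dsInR3. They had 0.26 with dsInR1 and 0.86 with dsInR3 for PHB2_0 (C0J52_05099), and 0.29 and 0.80 for PHB2_1 (C0J52_27126).

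Genes listed by product name under insulin and TOR signalling mostly had values slightly below 0. Among 30 such genes, 23 were tested, 0 were called, 0 were higher and 5 lower at an unadjusted p under 0.05, and 19 had a value below 0. By its product name the list takes in the receptor InR, itself lower at that p and possibly a target of the dsRNA. The share of the list under that p was 21.7%, beside 11.1% of all genes, and the median -0.20, beside -0.01 over all genes, with medians of -0.08 for dsInR1 and -0.38 for dsInR3. The count of lower members depended on the fit. With 1 coefficient for the 8 knockdown libraries it was 2 of 23, beside 949 of 10193 genes under that p, and the list median was -0.19. It was 7 without dsInR1 library 2 and 4 without dsMock library 1. IGFBP, related to binding proteins of insulin-like growth factors, was at 554, 547, 532 and 626 CPM in dsMock, 515, 413, 414 and 533 in dsInR1 and 285, 309, 492 and 315 in dsInR3. The dsMock range was left on the lower side by 7 of 8 knockdown libraries, while dsInR1 library 7 reached into it (-0.48 ± 0.15 (SE), adjusted p = 0.322). The transcription factor FoxO has 2 gene models on 1 contig, of which foxo_1 was at -0.08 ± 0.13 with dsInR1 and -0.63 ± 0.13 with dsInR3 and foxo_0 at 0.03 ± 0.13 with dsInR1 and -0.49 ± 0.13 with dsInR3. Mextli (mxt), a 4E-binding translation regulator, was at 0.02 ± 0.18 with dsInR1 and -0.71 ± 0.18 with dsInR3. For all 3, dsInR1 was within 1 SE of 0.

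Kinases of the list include S6 kinase models of the alpha class, taken in by product name. Whether they act in TOR signalling was not tested. Among them RPS6KA5_1 had -0.45 ± 0.12 (SE) with an adjusted p of 0.3. DESeq2 called it and none of the other alternatives did. TOR complex genes stayed close to dsMock. The kinase gene Mtor_1 was at -0.18 ± 0.12 (SE), its partner RPTOR at -0.15 ± 0.14 (SE), Rictor at -0.19 ± 0.19 (SE), mlst8 at -0.02 ± 0.12 (SE) and the activating GTPase Rheb at -0.06 ± 0.10 (SE). The kinase Pdk1, which phosphorylates Akt, was at -0.31 ± 0.28 (SE), and the S6 kinase models Rps6kb1_0 and RPS6KB1_1 were at 0.13 ± 0.14 (SE) and 0.11 ± 0.18 (SE). The inhibitor Eif4ebp1, a translational brake that TOR inactivates, was at -0.31 ± 0.24 (SE). None of these 9 differed from dsMock beyond 2 SE, and for 21 of the 23 tested genes the 95% interval excluded a 2-fold change. Members at the edge of detection were less certain, such as RPS6KA5_6 at -1.72 ± 0.92 (SE).

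Genes of the endoplasmic reticulum (ER) secretory pathway, which fold and export the proteins that fat body secretes, were mostly above dsMock. Of 40 tested members 14 were higher and 0 lower at an unadjusted p under 0.05, and 35 had a value above 0. That is 35% of the list, beside 11.1% of all genes. The median was 0.23, with 0.19 for dsInR1 and 0.28 for dsInR3. No member was called at an adjusted p of 0.05. RPN2, a subunit of the complex that attaches sugar chains to nascent proteins, was at 127, 277, 269 and 179 CPM in dsMock, 289, 348, 398 and 203 in dsInR1 and 614, 528, 342 and 535 in dsInR3. Rpn1_1, a second subunit, was at 66, 155, 120.4 and 99.2 CPM in dsMock, 121, 182, 184 and 94.1 in dsInR1 and 234, 258, 174 and 259 in dsInR3. For both genes dsMock library 1 was the lowest of the 12 and dsInR1 overlapped the controls. Their pooled log2 fold changes were 0.89 ± 0.24 (SE) and 0.73 ± 0.23 (SE), with adjusted p-values of 0.307 and 0.322. Srp19, of the signal recognition particle that guides ribosomes to the ER, was at 0.44 ± 0.12 (SE).

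The count depended on single libraries. Without dsMock library 1 the number of higher ER members was 4, without dsMock library 5 it was 7 and without dsInR1 library 6 it was 9, while the medians were 0.21, 0.22 and 0.20. The largest count was 19, without dsInR1 library 2. Summed over the list, CPM ranged from 6572 to 9721 in dsMock, from 8601 to 13010 in dsInR1 and from 10640 to 12380 in dsInR3. The dsInR3 libraries were thus all above the controls in the sum, and dsInR1 overlapped them.

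Chaperones and redox enzymes were tested as a further list. Of 45 tested heat shock and oxidative stress genes, 15 were higher and 1 lower at an unadjusted p under 0.05, which is 35.6% of the list beside 11.1% of all genes, with a median of 0.19, and 9 were higher without dsMock library 1. TRAP1, the mitochondrial form of heat shock protein 90, has 2 adjacent gene models on 1 contig. Trap1_0 had 0.12 ± 0.13 with dsInR1 and 0.62 ± 0.13 with dsInR3, and TRAP1_1 had 0.61 ± 0.24 with dsInR1 and 0.75 ± 0.24 with dsInR3. CCT2, a subunit of the ring chaperonin that folds actin and tubulin, was at 0.33 ± 0.10 (SE). Adjusted p-values for the 3 genes were 0.317, 0.322 and 0.322.

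Genes of translation were split. Among 59 ribosome biogenesis and translation factors 10 were higher and 4 lower at an unadjusted p under 0.05, or 23.7% beside 11.1% of all genes, with a median of 0.14, which was 0.06 without dsMock library 1. The higher members numbered 16 without dsInR1 library 2, 6 without dsMock library 1 and 4 without dsMock library 5. Without dsMock library 5 these counts were 4 and 2, without dsMock library 1 they were 6 and 2, and without dsInR1 library 2 they were 16 and 6. The cap-binding factor eif4e had 0.09 ± 0.12 with dsInR1 and 0.61 ± 0.12 with dsInR3, eIF-2alpha, a subunit of the factor that brings the initiator tRNA, had 0.28 ± 0.16 with dsInR1 and 0.69 ± 0.16 with dsInR3, and Non1, a nucleolar GTPase, had -0.24 ± 0.13 with dsInR1 and -0.43 ± 0.13 with dsInR3. Of 72 cytosolic ribosomal protein genes tested, 0 reached an unadjusted p under 0.05 in either direction, 56 had a value above 0, the median was 0.06, and for 70 the interval excluded a 2-fold change. Of all 10193 tested genes, 4982 had a value above 0. By treatment the median of the 72 was -0.03 for dsInR1 and 0.14 for dsInR3. Without dsMock library 4, 6 of the 72 were higher and the pooled median was 0.14. The pooled median was -0.02 without dsInR3 library 3 or dsMock library 3 and 0.0046 without dsMock library 1. RPL26 had the smallest p, at 0.22 ± 0.11 (SE).

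**Figure D4:**
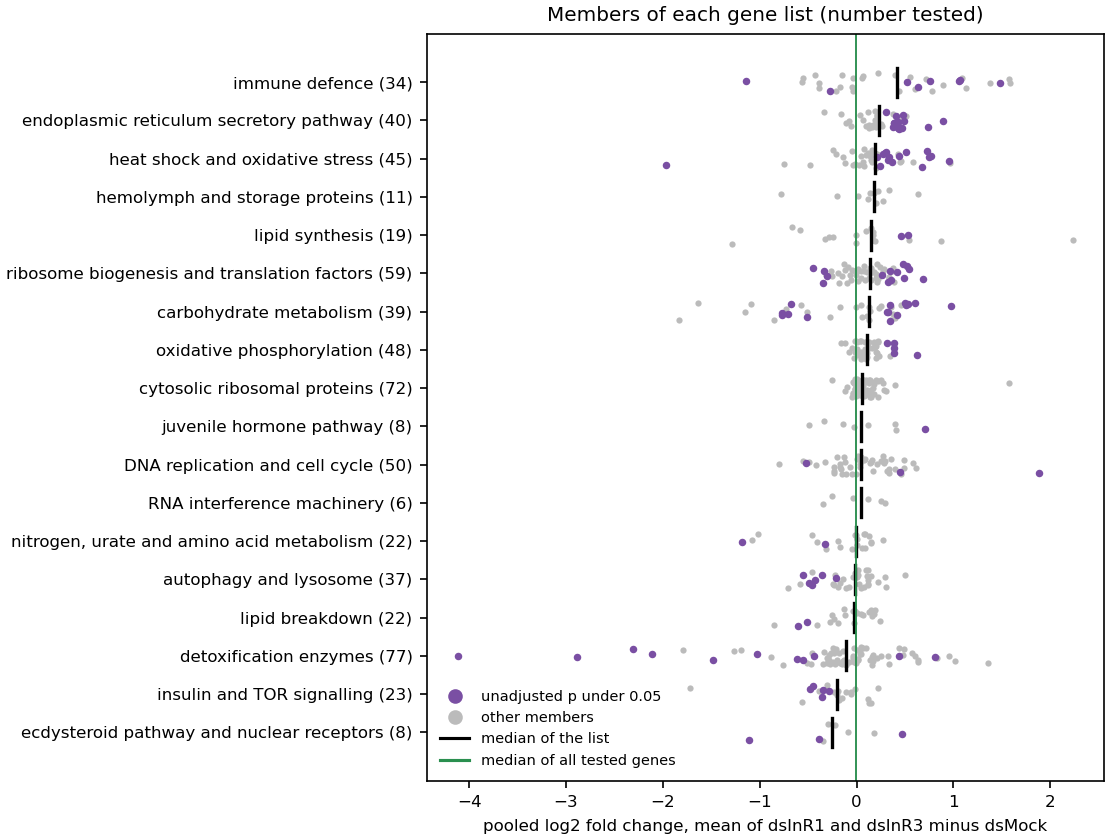
Pooled log2 fold change of every tested member of 18 gene lists, ordered by median; purple points have an unadjusted p under 0.05, black bars are list medians and the green line is the median of all tested genes. Purple points of the ER secretory pathway all lie right of 0, those of insulin and TOR signalling all lie left of it, and carbohydrate and detoxification genes lie on both sides.

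Carbohydrate genes stood on both sides of dsMock. Of 39 tested, 10 were higher and 5 lower at an unadjusted p under 0.05, together 38.5% beside 11.1% of all genes, around a median of 0.13 with -0.05 for dsInR1 and 0.16 for dsInR3. The median was 0.04 without dsInR1 library 6 and 0.05 without dsMock library 3, and 6 genes were higher without dsMock library 1. Of the smallest p were TKTL1, Hex-t2_1 and Pgi, glucose-6-phosphate isomerase, at 0.18 ± 0.12 with dsInR1 and 0.66 ± 0.12 with dsInR3. The others are named here after their values were seen, with pooled values only. No member of the list was called in the pooled comparison (edgeR, smallest adjusted p 0.2). Glycolysis stood on both sides, as the hexokinase Hex-t2_1 was lower at -0.77. Higher were enzymes of glycolysis (Tpi at 0.35, Pgk at 0.60, Pfk at 0.53, PGAM1 at 0.52, Gapdh_0 at 0.34 and Gapdh_1 at 0.32), the glycogen-splitting enzyme GlyP at 0.50 and PGD of the pentose phosphate route at 0.31. Lower were the trehalose transporter models Tret1_2 at -0.67 and Tret1_18 at -0.71, the trehalase TREA_2, which splits the main sugar of insect hemolymph, at -0.77, and PGM2 at -0.51. The count was 6 higher without dsMock library 1, and 3 lower without dsInR1 library 5, dsInR1 library 7 or dsInR3 library 5. With dsInR3 alone TKTL1 and Pgi rose and Hex-t2_1 fell at an adjusted p of 0.05.

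Lipid genes reached an unadjusted p under 0.05 in the pooled comparison about as often as all genes did. Of 19 lipid synthesis genes 2 were higher at an unadjusted p under 0.05, a share of 10.5% beside 11.1% of all genes. The number of higher genes was 0 without dsMock library 1, 1 without dsMock library 3 or any of the 4 dsInR1 libraries, and 4 without dsMock library 4. ACLY, which makes the acetyl-CoA for fatty acid synthesis, was at 26.9, 38.1, 44.8 and 38.4 CPM in dsMock, 32.1, 34.1, 33.2 and 36 in dsInR1 and 118, 67.4, 67.5 and 52.4 in dsInR3. ELOVL6, a fatty acid elongase, had -0.02 ± 0.25 with dsInR1 and 1.08 ± 0.24 with dsInR3. In both genes dsInR1 lay inside the dsMock range or within 1 SE of it, and the pooled adjusted p-values were 0.414 and 0.397. Summed CPM of the lipid synthesis list was 1652 to 4456 in dsMock, 1455 to 3511 in dsInR1 and 5614 to 12400 in dsInR3. In this sum all dsInR3 libraries were above the controls, and dsInR1 overlapped them. Which members carry the sum was not tested. Of 22 lipid breakdown genes 2 were lower (9.09%), the acyl-CoA dehydrogenase C0J52_09993 at -0.60 ± 0.21 (SE) and the thiolase ACAA2 at -0.52 ± 0.21 (SE), both enzymes of beta-oxidation. That number was 0 without dsMock library 1, 1 without dsInR1 library 5, dsInR1 library 7, dsMock library 3 or dsMock library 5, and 4 without dsInR3 library 6.

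Of 48 oxidative phosphorylation genes 5 were higher and 0 lower at an unadjusted p under 0.05, a share of 10.4% near that of all genes, with a median of 0.10. By treatment the median was 0.0015 for dsInR1 and 0.24 for dsInR3, and 40 members had a pooled value above 0. COIII, subunit 3 of cytochrome c oxidase, was at 0.62 ± 0.21 (SE) and COX7A, a further subunit, at 0.32 ± 0.13 (SE). The count was 1 without dsInR1 library 5, dsInR3 library 3, dsMock library 1 or dsMock library 3, 2 without dsInR1 library 7, dsInR3 library 7 or dsMock library 5, 3 without dsInR3 library 5 and 9 without dsMock library 4. Among 22 genes of nitrogen, urate and amino acid metabolism 0 were higher and 2 lower (9.09%, beside 11.1% of all genes). The lower genes numbered 0 without dsInR3 library 5 or dsInR3 library 7 and 3 without dsInR3 library 6. Among the 2 was Uro (uricase, which breaks down urate) at -1.18 ± 0.50 (SE). Uro varied widely within groups, from 447 to 2635 CPM in dsMock alone.

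Hormone genes were sparsely measured. Among 18 juvenile hormone genes, 8 were tested. Of these 1 was higher at an unadjusted p under 0.05 (12.5%, beside 11.1% of all genes). That gene was SDR-1_3, a farnesol dehydrogenase, an enzyme type of the hormone's synthesis. It was at 68.3, 71, 137 and 93.3 CPM in dsMock, 116, 139, 127 and 142 in dsInR1 and 196, 168, 148 and 186 in dsInR3. The dsMock library 4 lay inside the dsInR1 range, and without it the adjusted p was 0.0498, against 0.252 with it (0.71 ± 0.17 (SE)). CYP15A1_3, an epoxidase of the same pathway, was at 0.40 ± 0.27 (SE). Of 8 ecdysteroid and nuclear receptor genes 1 was higher, Hr78 at 0.47 ± 0.18 (SE), and 2 were lower, Hr96 at -0.39 ± 0.17 (SE) and the ecdysone receptor EcR at -1.11 ± 0.38 (SE). Together they made up 37.5% of this short list, beside 11.1% of all genes. Of 13 hemolymph and storage protein genes 11 were tested and 0 reached an unadjusted p under 0.05. Their median was 0.18, and 9 had a value above 0. The 2 below 0 were transferrin (TRF), which binds iron, at -0.78 ± 0.56 (SE), and the ferritin subunit FERH at -0.20 ± 0.15 (SE).

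Defence genes were mixed. Of 34 immune genes 6 were higher and 2 lower at an unadjusted p under 0.05 (23.5% beside 11.1% of all genes), with a median of 0.42. The median was 0.47 for dsInR3 and 0.07 for dsInR1, and the pooled median was 0.22 without dsMock library 1 or dsMock library 3 and 0.65 without dsMock library 4. All 6 higher members are models of 1 family, hemolymph lectins that bind bacterial lipopolysaccharide, whose similar copies may share reads. LPSBP_32 was at 19.6, 18.4, 26.6 and 33.8 CPM in dsMock, 33.2, 25.2, 20.5 and 32.6 in dsInR1 and 67.8, 60.4, 65.8 and 52.7 in dsInR3, so that dsInR1 overlapped the controls. The antifungal peptide gene Drs_7 was lower with either treatment, at 20.2, 9.5, 14.5 and 16.5 CPM in dsMock, 5.33, 4.48, 8.15 and 10.2 in dsInR1 and 8.28, 3.94, 6.89 and 7.89 in dsInR3. Only dsInR1 library 7 reached the control range, and the values were -1.11 ± 0.31 with dsInR1 and -1.17 ± 0.31 with dsInR3 (pooled adjusted p = 0.244).

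Of 77 detoxification genes 2 were higher and 9 lower at an unadjusted p under 0.05, a share of 14.3% close to the 11.1% of all genes, around a median of -0.11. Without dsMock library 1 the counts were 3 and 5, and the number of higher genes lay between 2 and 4 without any other library. GstD1_7, a glutathione S-transferase, had 0.42 ± 0.21 with dsInR1 and 1.21 ± 0.20 with dsInR3, and the cytochrome P450 gene CYP4C1_1 had -2.89 ± 0.80 (SE). Of 37 autophagy and lysosome genes 0 were higher and 6 lower (16.2%), with a median of -0.01, and 3 were lower without dsMock library 1. The lysosomal proteases CTSB and PRCP were at -0.36 ± 0.11 (SE) and -0.46 ± 0.15 (SE), and ATG9A, a membrane protein of early autophagosomes, at -0.49 ± 0.19 (SE). Of 6 RNA interference genes 0 reached an unadjusted p under 0.05. The slicer AGO2 was at -0.35 ± 0.17 (SE). Of 50 DNA replication and cell cycle genes 2 were higher and 1 lower (6%, beside 11.1% of all genes). The median of this list was 0.04, and 30 members had a value above 0. The lower gene was cdk2 at -0.53 ± 0.24 (SE).

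Markers of other tissues were examined in the same way. None of 18 tested muscle, 5 hemocyte, 14 epidermis and trachea and 16 nervous genes reached an unadjusted p under 0.05, but the interval lay within a 2-fold change for only 5, 3, 4 and 6 of them. The median of the hemocyte markers was -0.32, with -0.27 for dsInR1 and -0.25 for dsInR3, and it was -0.11 without dsMock library 1 and -0.21 without dsMock library 3. Without dsInR3 library 3, 2 of the 5 were lower, and 1 was lower without dsInR1 library 6, dsInR1 library 7, dsMock library 3 or dsMock library 4. Muscle markers had a median of -0.16, which was 0.03 without dsMock library 1, and the medians were 0.13 for epidermis and trachea, 0.11 for nervous tissue, 0.11 for gut and 0.18 for ovary. Of 6 ovary and germline genes 1 was higher and 1 lower (33.3%, beside 11.1% of all genes), both annotated as vasa, the germline RNA helicase. Of 18 gut and Malpighian tubule genes 1 was higher (5.56%), MYRO1_10 at 0.61 ± 0.22 (SE). Without dsMock library 5, 4 gut genes were higher, without dsInR1 library 6 there were 2, and without dsMock library 3 there were 0. Summed CPM of muscle markers was 298 to 385 in dsMock, 257 to 353 in dsInR1 and 238 to 350.4 in dsInR3. Hemocyte markers summed to 195 to 221 in dsMock, 148 to 204 in dsInR1 and 142 to 201 in dsInR3. Gut markers summed to 645 to 1237 in dsMock, 592 to 883 in dsInR1 and 677 to 991 in dsInR3, and ovary markers to 104 to 169, 108 to 128 and 110 to 119. Epidermis markers summed to 45.8 to 62.2, 35.7 to 78.4 and 42 to 68.2 CPM, and nervous markers to 20.3 to 26.8, 23.2 to 31.1 and 24.6 to 34.2 CPM, in the same order of groups. No reads in any of the 12 libraries were found for 36 of 67 epidermis, 23 of 55 gut, 21 of 51 nervous and 1 of 20 muscle markers. The part of these tissues in the differences above was not tested.

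Each treatment was also tested alone. Against the same 4 dsMock libraries, dsInR1 alone gave 0 calls (0%, smallest adjusted p 0.299), and 393 genes had an unadjusted p under 0.05. DESeq2 called 3 genes and limma-voom 0. With dsInR3 alone 56 genes were called (0.549%), 35 higher (0.343%) and 21 lower (0.206%), and DESeq2 called 658 and limma-voom 103. The dsInR3 count depended on libraries, and leaving 1 out gave 3 to 215 calls. It was 3 without dsInR3 library 3, 4 without dsInR3 library 5, 7 without dsMock library 1, 13 without dsInR3 library 7, 19 without dsMock library 5, 21 without dsInR1 library 5, 33 without dsInR1 library 6 or dsMock library 3, 111 without dsMock library 4 and 215 without dsInR3 library 6. As a description of genes chosen by their dsInR3 call, which raises the dsInR3 values, the 35 that rose had a median log2 fold change of 1.03 with dsInR3 and 0.36 with dsInR1, and the 21 that fell had -1.17 and -0.26. Both treatments share the dsMock libraries.

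Named genes among the 56, chosen here after their values were seen, included enzymes and mitochondrial proteins. CBS (C0J52_08847), which makes cystathionine from homocysteine, rose by 0.99 ± 0.17 (SE) with dsInR3 and had 0.17 ± 0.17 with dsInR1. STOML2 (C0J52_09813), a protein of the inner mitochondrial membrane, rose by 0.63 ± 0.12, and Marf (C0J52_19995), which fuses mitochondrial outer membranes, fell by 0.68 ± 0.13. CTSC (C0J52_02049), annotated as dipeptidyl peptidase 1, fell by 1.07 ± 0.18. With dsInR1 these 3 genes had 0.30 ± 0.12, -0.22 ± 0.13 and -0.22 ± 0.18.

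Whether dsInR1 and dsInR3 differ was tested directly, without the control libraries in the contrast. No gene passed (0%, smallest adjusted p 0.0991), 1143 genes had an unadjusted p under 0.05, DESeq2 called 173 and limma-voom 0. Calls numbered 1 without dsInR1 library 2 and 2 without dsInR3 library 6. The smallest p belonged to NUDC_1, a chaperone cofactor of the dynein pathway, at 22.8, 24.9, 24.1 and 22.4 CPM in dsMock, 24, 23.3, 27.1 and 25 in dsInR1 and 54, 37.9, 41 and 38.6 in dsInR3. No dsInR3 library overlapped dsInR1, and the difference of dsInR1 from dsInR3 was -0.79 ± 0.12 (adjusted p = 0.0991). ME1_1, malic enzyme, which supplies NADPH for fatty acid synthesis, was at 371, 418, 352 and 356 CPM in dsMock, 299, 228, 189 and 181 in dsInR1 and 916, 798, 357 and 596 in dsInR3. All dsInR1 libraries lay below the controls and 3 of 4 dsInR3 libraries above them, and the pooled value was 0.05 ± 0.22 (SE). Of the 56 genes called with dsInR3, 52 had an unadjusted p under 0.05 in this contrast, which shares the dsInR3 libraries with the call.

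**Figure D5:**
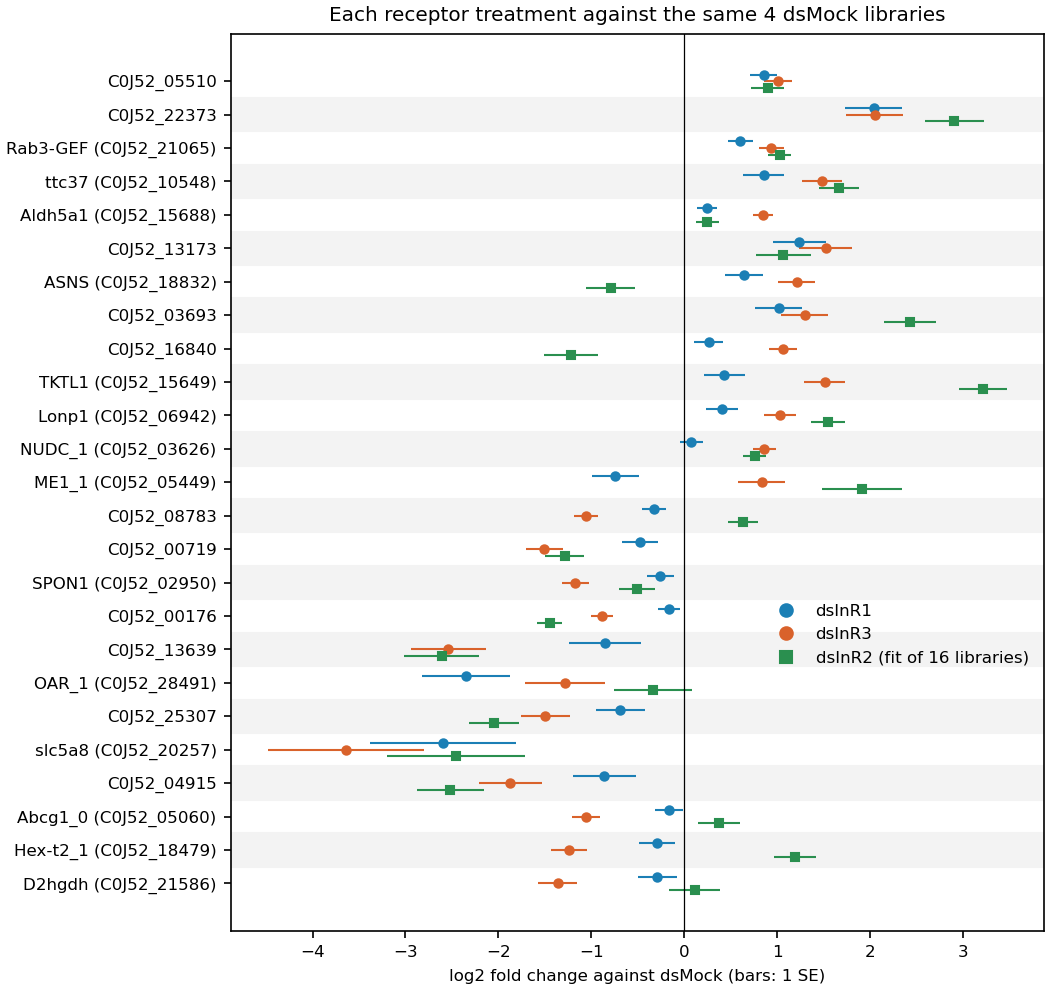
Log2 fold change against dsMock (points, with bars of 1 SE) for the genes of smallest p, for dsInR1 and dsInR3 from the fit of 12 libraries and for dsInR2 from the fit of 16; the 3 series share the 4 dsMock libraries. The dsInR1 and dsInR3 points of C0J52_22373 and C0J52_05510 overlap within their bars, and dsInR2 lies on the other side of 0 for ASNS, C0J52_16840, C0J52_08783, Abcg1_0, Hex-t2_1 and D2hgdh.

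The mean of dsInR1 and dsInR3 was also set against dsInR2. Of 10536 genes tested over 16 libraries 3573 differed (33.9%), 1593 higher (15.1%) and 1980 lower (18.8%) than with dsInR2. The genes of smallest pooled p did not all stand alike. For C0J52_05510 the mean of dsInR1 and dsInR3 minus dsInR2 was 0.04 ± 0.15 (adjusted p = 0.869), and the log2 fold change of dsInR2 against dsMock was 0.90. For C0J52_22373 the difference was -0.86 ± 0.28 (adjusted p = 0.023), with dsInR2 the higher. TKTL1 differed from dsInR2 by -2.24 ± 0.22 (adjusted p = 4.77e-06).

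Opposite values were found too. ASNS was at 0.93 in the pooled comparison and at -0.79 with dsInR2, a difference of 1.72 ± 0.23 (adjusted p = 0.00011). Hex-t2_1 was at -0.77 and at 1.20 (difference -1.96 ± 0.20, adjusted p = 5.68e-06), and C0J52_08783 at -0.69 and at 0.64 (adjusted p = 8.11e-06). The receptor InR was higher than in dsInR2 by 2.87 ± 0.17 (adjusted p = 2.91e-07). Apolipophorin, close to dsMock in the pooled comparison at 0.01 ± 0.19 (SE), differed from dsInR2 by -1.16 ± 0.22 (adjusted p = 0.0007). For Drs_7 no difference was detected, at a value of 0.02 ± 0.39 (adjusted p = 0.973).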

How the data were processed

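The authors deposited a table of read counts for 28676 annotated genes. FastQC, HISAT2, StringTie and Trimmomatic are named, without versions, per the submitters' processing notes. The assembly is named only in the table's sheet title, and the strand setting and treatment of reads that fit several genes are not given in the sources used here. The deposited counts were tested. A further 32 columns of per-sample values were not used. Gene names are the table's own: 6346 genes carry a symbol and 21971 are hypothetical.

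Each library is 1 replicate and is named by its column number. The main test was edgeR's quasi-likelihood test (edgeR 4.0.16, limma 3.58.1, R 4.3.3) on 12 libraries with 1 coefficient per group, TMM factors, the default expression filter and Benjamini-Hochberg adjustment over 10193 genes, at a threshold of 0.05. The pooled value is the mean of the dsInR1 and dsInR3 coefficients minus dsMock, on the log2 scale. The comparison with dsInR2 used all 16 libraries. CPM values use TMM factors, and log2 CPM a prior count of 2. Residual degrees of freedom had a median of 12.2. Single measures were compared with exact permutation tests. Replicates were checked for duplicates, and every pair differed by far more than sampling noise (chi-square per degree of freedom at least 21.66). The procedure was tested on simulated data.

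Alternatives were RLE size factors, no low-count filter, DESeq2 1.42.0, limma-voom, all 16 libraries, 1 coefficient for the 8 knockdown libraries, the most abundant gene left out, each library left out in turn and a block by column number. The genes named were, by rule, up to 10 of smallest p in each direction, 6 with an informative product in each direction, 3 per list, all insulin and TOR genes, the 6 most abundant and the 5 of smallest p between dsInR1 and dsInR3. Lists were made from product names, and products that matched by spelling alone were taken out by hand. The groups pooled and the lists were chosen with earlier results of these data known. A few genes the rule names are not reported here. Intervals cover the spread between libraries. The libraries' depth, 15345964 to 21602786 counts, limits genes of few reads.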

Additional observations from a re-analysis of the deposited data

Results flagged for a closer look

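Of 375 groups of 4 libraries examined, 30 held a library far from the other 3, where chance gives about 1 in 20. Whether these libraries bear on the group differences was examined only by leaving each out. No explanation was weighed.

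The dsInR3 library 3 gave 6 of these flags. The most abundant gene took 35.1% of its counts against 53.8 to 56.9% in the other dsInR3 libraries. It held 354 CPM of the ribosomal protein gene RPL26 against 276 to 286 CPM, and 262 CPM of RpS9 against 184 to 185. Uricase (Uro) stood at 1273 CPM against 400 to 512. It was low for the unnamed gene C0J52_13639, at 0.92 CPM against 2.74 to 2.82, and for the S6 kinase model RPS6KA5_2, at 0.294 CPM against 0.581 to 0.614.

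A further 3 dsInR3 values came from library 6. They were IGFBP at 492 CPM against 285 to 315, the nucleolar GTPase Non1 at 114.5 against 85.4 to 90.3, and synaptotagmin Syt1_1 at 0.341 against 0.789 to 0.85. The dsInR3 library 5 was high for titin (sls_1), at 32.8 CPM against 25.8 to 26.6, and for the endochitinase CHIT_2, at 0.894 CPM against 0.

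Among dsInR1 libraries, library 2 was high for ATG9A, at 31.2 CPM against 19.9 to 20.5, for vas_0, at 5.84 against 2.08 to 2.55, for a gene annotated as trypsin 3A1, at 9.59 against 0.464 to 1.27, and for the chitinase CHIA_1, at 0.826 against 0 to 0.103. It was low for the NADH dehydrogenase subunit nduf-6, at 5.72 CPM against 8.93 to 9.58, and for mlst8, at 13.8 against 15.4 to 15.6. The larval cuticle gene CUA2B_1 reached 7.37 CPM in library 6 against 1.85 to 1.91.

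In dsMock, library 1 had a PC2 score of 55.7 against 11.4 to 14.1, held 11.3 CPM of ELOVL6 against 23.5 to 25.4, and 15.2 CPM of RPS6KA3 against 10.1 to 10.2. The dsMock library 3 was high for PRCP, at 284 CPM against 166 to 184, for vas_0, at 3.89 against 1.18 to 1.6, for RPTOR, at 12.8 against 10.4 to 10.7, and for CHIT_2, at 0.893 against 0. It was low for the phenoloxidase gene PRP1, at 75.9 CPM against 117 to 120.2, and for trypsin 3A1, at 0 against 0.576 to 0.633. The dsMock library 4 was high for C0J52_13173, at 4.03 CPM against 1.79 to 1.94, and for sls_1, at 26.8 against 22.5 to 23.2. The phosphatidylinositol 3-kinase gene pik3c3 stood at 25.1 CPM in dsMock library 5 against 19.3 to 19.9.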

How the results depend on the processing

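The number of calls depended on the tool. DESeq2 called 122 genes in the pooled comparison, 3 with dsInR1, 658 with dsInR3 and 173 between dsInR1 and dsInR3, and limma-voom called 2 in the pooled comparison and 103 with dsInR3. The fit over all 16 libraries gave 2 pooled calls and 32 with dsInR3. With 1 library left out the counts were 0 to 6 for the pooled comparison, 3 to 215 for dsInR3 and 0 to 2 between dsInR1 and dsInR3. The share of the most abundant gene then differed by -2.28 to 1.77 percentage points. The cause of these differences was not tested. RLE size factors and leaving out the most abundant gene moved no count of calls by more than 1.5 times.

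The column numbers are not replicate labels. Deviations of the 6 same-numbered pairs correlated at -0.122 to 0.17, 1 of them over 0.1, so the numbers were not taken to pair libraries. A replicate block on them left 3 residual degrees of freedom, gave 0 calls with dsInR3, 0 in the pooled comparison and 1281 against dsInR2, and turned the sign of some genes: C0J52_01161 to -0.0253, C0J52_23562 to 0.0269, C0J52_06928 to -0.0017, C0J52_10490 to -0.0209, C0J52_22785 to -0.0016, C0J52_07168 to 0.12, C0J52_00889 to -0.12 and C0J52_00453 to -0.12. With limma-voom C0J52_05449 was at -0.0145. With 1 library left out, the sign also turned for C0J52_00453 (-0.0471 to 0.0596), C0J52_00889 (-0.103 to 0.138), C0J52_02856 (-1.11 to 6.54), C0J52_05449 (-0.0529 to 0.148), C0J52_07168 (-0.205 to 0.0905), C0J52_13789 (-0.0903 to 0.0269), C0J52_15443 (-0.117 to 0.0634), C0J52_20295 (-0.0095 to 0.204) and C0J52_22784 (-0.0193 to 0.287). None of these genes passed a test. Depth limits the weakly expressed genes most.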
